A study of Mus musculus with 6 samples.

Results

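Cd5l, Lyz1, Lyz2 and Mpeg1 are 4 of the 33924 genes that the deposited table of mouse RPE/choroid lists. They were chosen by their symbols as abundant macrophage effector genes, at a time when earlier results of the same table, the authors' fold changes with age among them, were known. Their high mean level is therefore part of the choice and is given below as a description. All 4 were found in the table. RPE/choroid is the retinal pigment epithelium together with the vessel bed and resident cells beneath it. The samples came from 3 Young and 3 Aged C57BL/6J mice, described as male in the labels although the study's methods name both sexes, and RNA from both eyes of a mouse made up a sample. The labels give 1 to 2 months as the age of the Young mice, and the study's methods give a somewhat older range. For the Aged mice the titles give 20 to 24 months and the age field gives 22 to 24 months. No transgene, Cre or treatment is named in any group. The labels give poly(A) RNA as the molecule, and their library protocol names removal of ribosomal RNA and a stranded total RNA kit. The study describes the libraries of this set as both depleted of ribosomal RNA and selected for poly(A).

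What the table gives for each gene, apart from the authors' own comparison of the ages, is 1 mean normalized count over the libraries of both age groups. All levels below are this mean of the authors. No value of a single mouse was available to this work, so no SD could be given, the Young and Aged mice were not compared, and sequencing depth of single libraries is unknown. Differences between levels of genes are therefore given as ratios with no test, and a small ratio cannot be set against the spread between mice. In bulk tissue, fewer cells of a type and less RNA per cell cannot be told apart.

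Macrophages kill and digest microbes and clear debris with secreted and vesicular proteins. Lysozymes cleave the peptidoglycan of bacterial walls. Lyz2 encodes the lysozyme of macrophages and other myeloid cells, and Lyz1 encodes the lysozyme best known from Paneth cells of the small intestine. Mpeg1 encodes perforin-2, a pore-forming protein of phagocytic vesicles. Cd5l encodes a secreted scavenger receptor cysteine-rich protein, also known as AIM, which tissue macrophages make and which circulates in blood bound to IgM.

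The lysozyme genes lie next to each other. In GRCm38, Lyz2 (ENSMUSG00000069516) occupies chr10:117277331-117282321 and Lyz1 (ENSMUSG00000069515) occupies chr10:117287797-117292868, both on the minus strand, with 5475 bases between them. Each has 1 annotated transcript of 4 exons with a coding sequence of 447 bases. The coding sequences were identical at 425 of 447 bases, or 95.1%. Exon 1 held 14 of the 22 differences, exon 2 held 6, exon 3 held 0 and exon 4 held 2. Exon 2 is shown because it lies inside the coding sequence and carries bases by which reads of Lyz1 and Lyz2 can be told apart. It covers chr10:117291029-117291193 in Lyz1 and chr10:117280641-117280805 in Lyz2. The sequences are from the GENCODE transcripts of GRCm38, written 5′ to 3′ on the minus strand, and capitals mark the bases that differ.
Lyz1 exon 2: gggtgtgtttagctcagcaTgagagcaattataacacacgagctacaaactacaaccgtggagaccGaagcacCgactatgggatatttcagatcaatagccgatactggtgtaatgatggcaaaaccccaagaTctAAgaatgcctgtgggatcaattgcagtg
Lyz2 exon 2: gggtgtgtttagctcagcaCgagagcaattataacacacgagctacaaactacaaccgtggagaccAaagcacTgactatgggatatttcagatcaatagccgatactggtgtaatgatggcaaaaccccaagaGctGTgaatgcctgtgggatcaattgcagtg

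Exon 3, of 79 bases, read the same in both genes. It is shown as the coding exon that holds no base to separate the genes, although reads longer than it also cover parts of neighbouring exons. It covers chr10:117289119-117289197 in Lyz1 and chr10:117278643-117278721 in Lyz2.
Exon 3 of Lyz1 and Lyz2: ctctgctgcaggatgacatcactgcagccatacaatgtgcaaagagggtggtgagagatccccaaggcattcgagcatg

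Lyz2 was by far the most abundant of the 4 genes. Its mean normalized count was 121895, which was 0.299% of all counts in the table and 84.0% of the counts of the 4 genes together. To compare genes of different length, counts were divided by the length of the longest annotated transcript. Lyz2 had 92625 normalized counts per kb of transcript. That placed it 14th of the 17972 genes that had a mean of at least 10 and an annotated length. The median of those genes was 212.9 per kb, so the level of Lyz2 was 435 times the median.

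Lyz1 was the second of the 4 genes per kb. Its mean normalized count was 9949.9, or 7878 per kb, at rank 464. The level of Lyz2 per kb was 11.8 times that of Lyz1, and Lyz1 held 7.55% of the counts of the lysozyme pair. This split depends on reads that differ between the genes. Of the 1214 overlapping words of 50 bases in the Lyz1 transcript, 1019 occur in no transcript of another gene, or 83.9%. For Lyz2 this was 84.6% of 1267 words. The 195 shared words of each gene were all shared with the other lysozyme gene. The libraries were read from both ends at 100 bases, and at that word length 97.9% of Lyz1 words and 98.0% of Lyz2 words were found in no other gene. Because the reads were quantified with shared sequence present, the levels of Lyz1 and Lyz2 are uncertain to the extent that reads from the shared stretches were assigned to the wrong gene. How many such reads there were was not tested. Lyz2 had 12.3 times the counts of Lyz1, so the same share of misassigned reads would change the level of Lyz1 more. The sum of both genes does not depend on the split and was 131845 normalized counts.

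**Figure D1:**
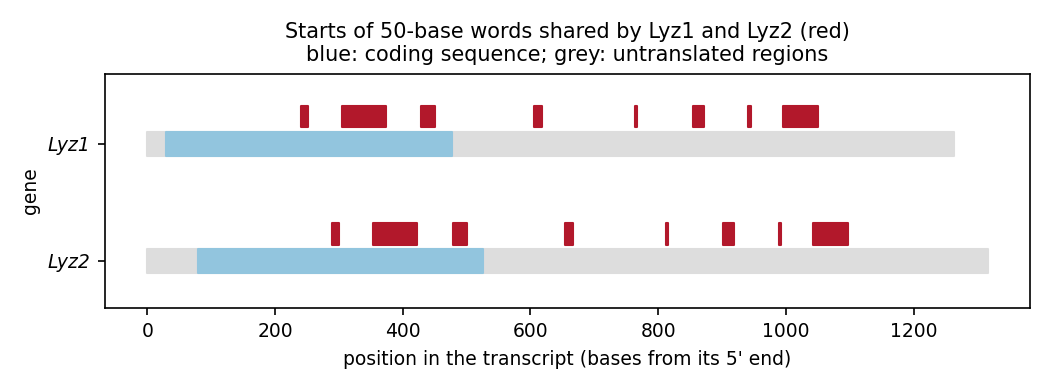
Map of the Lyz1 and Lyz2 transcripts, with the position in bases from the 5′ end on the horizontal axis. Red blocks mark where words of 50 bases start that both transcripts hold, blue is coding sequence and grey is untranslated, and the shared words fall in separate blocks with 83.9% of the Lyz1 words and 84.6% of the Lyz2 words outside them.

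Mpeg1 (ENSMUSG00000046805) lies at chr19:12460779-12465283 on the plus strand. It has 1 annotated transcript of 2 exons and 4334 bases, 2163 of them coding. Its mean normalized count was 10891, above that of Lyz1, but its transcript is longer. Per kb it had 2513 counts, at rank 1367, so that Lyz1 was 3.14 times as high as Mpeg1 per kb. All of its 4285 words of 50 bases were found in no other gene.

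Cd5l (ENSMUSG00000015854) lies at chr3:87357881-87371073 on the plus strand, with 1 annotated transcript of 6 exons and 2036 bases. Its mean normalized count was 2302, the lowest of the 4. Per kb it had 1131 counts, at rank 2880. Lyz2 was 81.9 times, Lyz1 6.97 times and Mpeg1 2.22 times as high as Cd5l per kb. Even so, Cd5l was 5.31 times the median of the ranked genes. All of its 1987 words of 50 bases were found in no other gene. No other annotated gene overlaps any of the 4 genes.

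**Figure D2:**
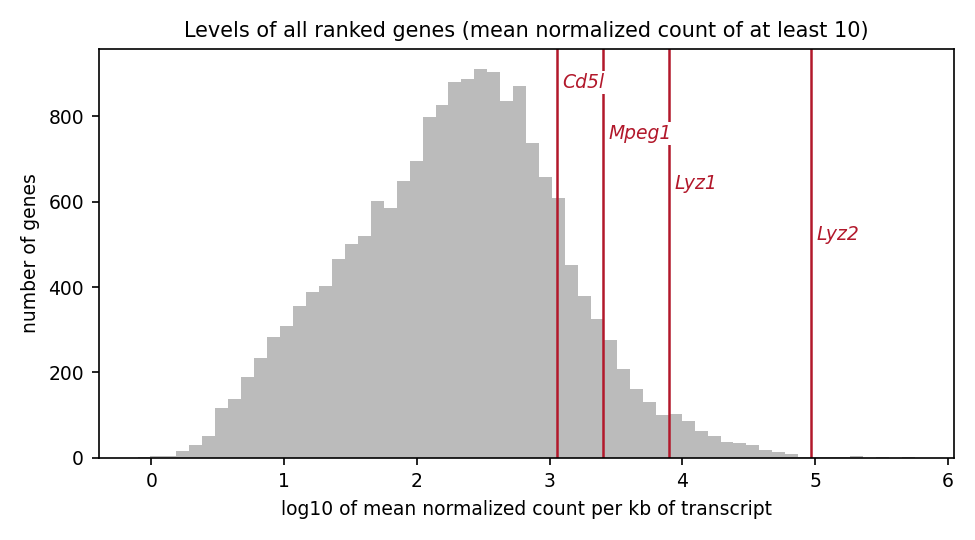
Histogram of the level of the 17972 ranked genes, with log10 of the mean normalized count per kb of transcript on the horizontal axis and the number of genes on the vertical axis. Red lines mark the 4 genes, which lie from 5.31 times (Cd5l) to 435 times (Lyz2) the median of 212.9 per kb.

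The levels were then set beside 17 macrophage markers, all of which were found in the table, Adgre1 under its older symbol Emr1. Lyz2 was above every marker on the list. The nearest was Ctss, which encodes the lysosomal protease cathepsin S, at 36722 counts per kb, so that Lyz2 was 2.52 times as high. Summed, the 4 genes had 1.27 times the counts per kb of the 17 markers together, and Lyz2 made up 88.9% of that sum of the 4 genes.

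Lyz1 stood below 3 of the markers, Ctss, C1qa and Tyrobp. C1qa, which encodes a chain of the complement starter C1q, had 12659 counts per kb. Tyrobp, which encodes an adaptor of myeloid receptors, had 9399 and was the nearest above Lyz1. C1qc, another chain of C1q, was the nearest below with 7308, and the level of Lyz1 was 1.08 times that of C1qc.

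Mpeg1 stood between C1qb, with 7152 counts per kb, and Cd68, with 2493. Its level was 1.01 times that of Cd68, which encodes a lysosomal membrane glycoprotein of macrophages. Cd5l stood below 9 of the markers. The nearest above was Aif1, an actin-binding protein gene, with 1159 counts per kb, and the nearest below was Mertk, a receptor for the uptake of dead cells and photoreceptor outer segments that RPE cells also carry, with 870. The macrophage growth factor receptor gene Csf1r had 1217 and Adgre1, which encodes F4/80, had 1197. Cd5l thus lay within a factor of 1.30 of Mertk and at 0.975 times Aif1. With no spread between mice known, the order of such neighbours is not established.

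**Figure D3:**
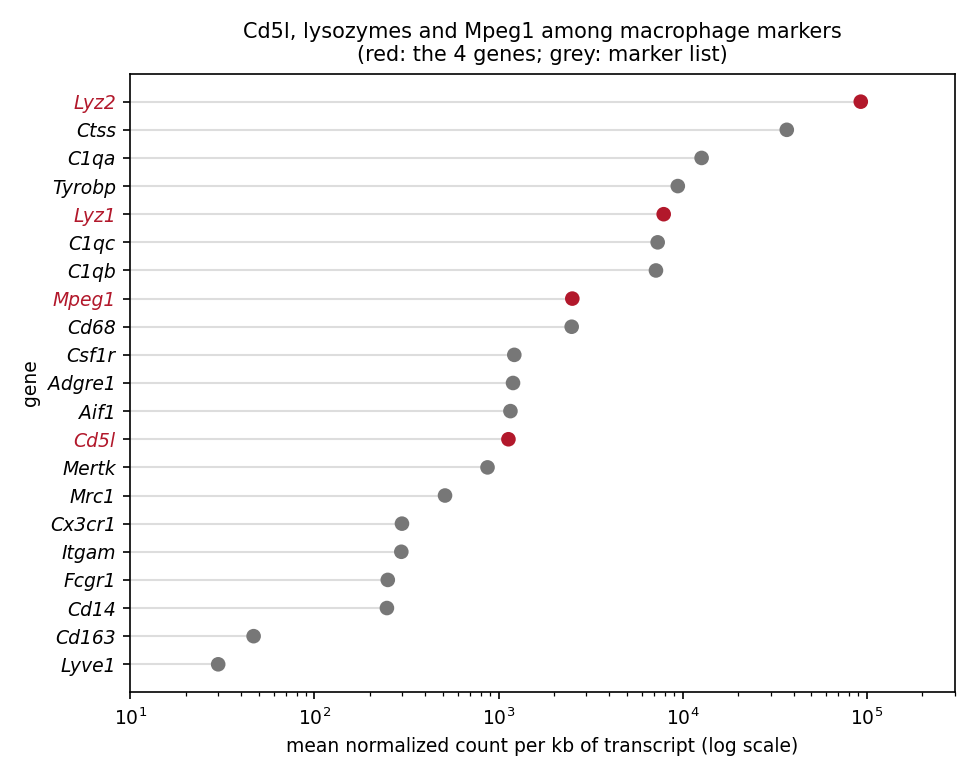
Mean normalized count per kb of transcript, on a log axis, of the 4 genes (red) and 17 macrophage markers (grey), with 1 point for each gene and no error bars, since each point is the authors' mean over all libraries. Lyz2 lies above all markers, Lyz1 below 3, Mpeg1 below 5 and Cd5l below 9 of them.

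Most other genes of the lysozyme family were near or at the floor of the table. The lysozyme family list held 8 genes besides Lyz1 and Lyz2. Of these, Lyzl6, Lyg1 and Lyg2 were listed at 0. Lalba, which encodes the milk protein alpha-lactalbumin, was the highest with a mean normalized count of 102 and 132 counts per kb, and Lyz1 was 59.5 times as high per kb. The other 4, Lyzl1, Lyzl4, Spaca3 and Spaca5, had means between 1.67 and 11.3.

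Among the listed genes with the pore-forming MACPF domain, Mpeg1 was the highest. Of the 12 genes on that list 11 were found, and the highest besides Mpeg1 was Astn2, which encodes a neuronal adhesion protein, with 48.4 counts per kb. Mpeg1 was 51.9 times as high. Prf1, the perforin gene of cytotoxic lymphocytes, had a mean normalized count of 22.0. The complement pore genes C6, C7, C8a and C9 had means between 0.336 and 10.4, and C8b was listed at 0.

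Cd5l was not the highest of its own family. Among the 14 other genes with scavenger receptor cysteine-rich domains, Lgals3bp, which encodes a secreted galectin-binding glycoprotein, had 1691 counts per kb, and Cd5l was at 0.669 times that level. The other 13 were below Cd5l. Scara5, a ferritin receptor gene, had 728 and Prss12, a secreted protease gene, had 536. The lysyl oxidase genes Loxl3, Loxl2 and Loxl4, whose products crosslink collagen and elastin, had 296, 295 and 228. Macrophage scavenger receptor genes of this family were lower. Msr1 had 167 counts per kb and Cd163, the hemoglobin scavenger receptor gene, had 46.7. Marco had a mean normalized count of 1.62.

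**Figure D4:**
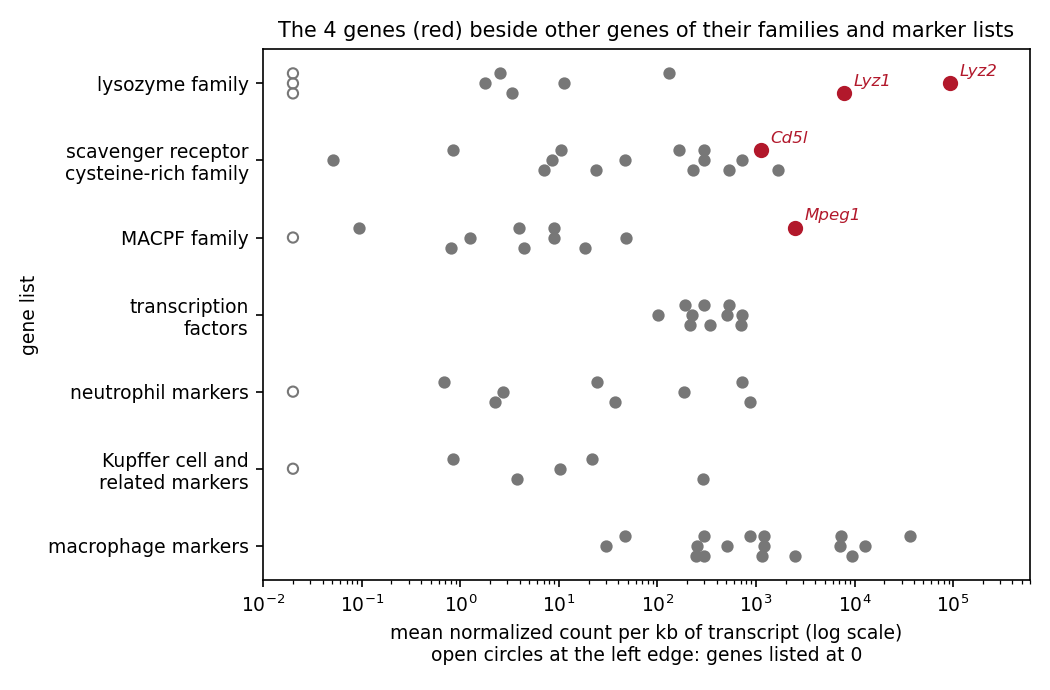
Mean normalized count per kb of transcript, on a log axis, for the 4 genes (red) and the other genes (grey) of 7 lists, with 1 point for each gene and open circles for genes listed at 0. Lyz1 and Lyz2 exceed the next lysozyme family gene, Lalba at 132, and Mpeg1 exceeds the next MACPF gene, Astn2 at 48.4, whereas Lgals3bp lies above Cd5l.

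Cd5l is well known from Kupffer cells, the macrophages of the liver, and from macrophages of the spleen. Other genes of those cells were low here. Clec4f, a Kupffer cell lectin gene, was listed at 0, Marco had a mean normalized count of 1.62 and Vsig4, a complement receptor gene, had 5.37. Timd4, a receptor gene for dying cells, had 22.3 and Spic, a transcription factor gene of red pulp macrophages, had 49.6. Slc40a1, which encodes the iron exporter ferroportin and is expressed in many cell types, was the 1 gene of these 6 with a mean of at least 100, at 1129.

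The genes of known partners of the Cd5l protein were all present. Cd36, whose product takes the protein into cells, had 1696 counts per kb. Ighm, the heavy chain gene of IgM, had 1075, close to Cd5l itself. Fasn, the fatty acid synthase gene whose product the protein binds in fat cells, had 267, and Jchain, the joining chain gene of IgM, had 179 under its older symbol Igj.

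Transcription factor genes linked to macrophage expression of these genes were measured at lower levels than any of the 4. All 10 on the list had means of at least 100 and lay between 101 and 724 counts per kb. Rxra, a partner of nuclear receptors, was the highest with 724, and the liver X receptor genes Nr1h2 and Nr1h3 had 710 and 343. Cebpb had 533, Cebpa had 506 and Irf8 had 297. Spi1, which encodes the myeloid factor PU.1, had 213 under its older symbol Sfpi1. Maf had 224.

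The promoters of the 4 genes were searched on both strands for letters bound by such factors. The windows run from 250 bases before to 50 bases after the RefSeq start (GRCm38.p6), and the searches were chosen with the sequences in view. The letters AGGAAGT, a core that PU.1 and other ETS factors bind, were in the promoters of Lyz1 and Lyz2, in each from 100 to 94 bases before the RefSeq start, and in 9.35% of the 32851 promoters. A MAF element, TGCTGA followed after 2 bases by its reverse complement, was in the promoter of Cd5l from 54 to 41 bases before the RefSeq start, and in 2 of the 32851 promoters. The form with 1 base between was in 2 promoters and in none of the 4 genes. The repeat of AGGTCA spaced by 4 bases that liver X receptors bind was in 5 promoters and in none of the 4 genes. The window of Mpeg1 held no match to any of these letters. Each match is a description of the letters and was not tested as a site. For Cd5l and Lyz1 the GENCODE transcript starts at the same base. For Lyz2 it starts 49 bases earlier, and counted from there the match lies 51 to 45 bases before the start. The sequences that hold a match are shown 5′ to 3′ on the strand of the gene, with the match in capitals. That of Cd5l runs up to its start. Those of Lyz1 and Lyz2 are the first 201 bases of the window and leave out the last 49 bases before the RefSeq start, so that the Lyz2 sequence ends where its GENCODE transcript begins. They are credited to RefSeq and cover chr3:87357631-87357880 for Cd5l, chr10:117292918-117293118 for Lyz1 and chr10:117282322-117282522 for Lyz2.
Cd5l promoter: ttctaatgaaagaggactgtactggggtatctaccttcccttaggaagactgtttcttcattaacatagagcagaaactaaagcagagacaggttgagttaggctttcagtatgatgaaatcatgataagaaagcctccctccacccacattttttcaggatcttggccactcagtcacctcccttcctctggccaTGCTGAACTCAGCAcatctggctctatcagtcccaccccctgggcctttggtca
Lyz1 promoter: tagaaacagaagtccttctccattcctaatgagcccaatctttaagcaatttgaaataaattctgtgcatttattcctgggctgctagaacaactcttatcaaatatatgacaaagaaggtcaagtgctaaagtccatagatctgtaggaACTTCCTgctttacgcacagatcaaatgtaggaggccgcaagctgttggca
Lyz2 promoter: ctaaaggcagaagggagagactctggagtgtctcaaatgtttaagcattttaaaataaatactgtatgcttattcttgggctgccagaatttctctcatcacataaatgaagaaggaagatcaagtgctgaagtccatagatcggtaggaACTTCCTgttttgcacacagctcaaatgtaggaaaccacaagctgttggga

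These stretches of 201 bases of Lyz1 and Lyz2 were identical at 151 of 203 aligned positions, 4 of them gaps, or 74.4%. In the coding sequence, compared without gaps, 95.1% of bases were identical. The other protein coding genes nearby did not share the level of Lyz1 and Lyz2. Within 100 kb, Cpsf6, a gene of the mRNA cleavage machinery, had 751 counts per kb and Yeats4 had 1428, while 9530003J23Rik had a mean normalized count of 0.817. Next to Mpeg1, Pfpl lies 28668 bases away and had a mean of 1.38, and Dtx4, at 1054 bases, had 148 counts per kb. Near Cd5l, the Fc receptor-like genes Fcrl1, at 5313 bases, and Fcrls, at 94142 bases, had 45.8 and 786 counts per kb.

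Lysozyme is also made by neutrophils, so their markers were examined. Of 9 neutrophil markers, 4 had a mean of at least 100. S100a9 and S100a8, calcium-binding protein genes of neutrophils and monocytes, had 866 and 719 counts per kb, Camp had 185 and Ltf, the lactoferrin gene, had 37.2. Mpo was listed at 0 and Elane had a mean of 0.676. The summed level of the 9 genes was 1837 counts per kb, and Lyz2 was 50.4 times that sum. The part of neutrophils in the lysozyme level was not tested.

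The tissue label was checked against its markers. Rpe65, the retinoid isomerase gene of the RPE, had 61154 counts per kb, and 5 of 6 RPE markers had means between 50958 and 397586, whereas Best1 had 81.8. The libraries also held RNA of tissues around the RPE, with Gnat1, the rod transducin gene, at 10858 counts per kb and 5 skeletal muscle genes between 8136 and 54081. Endothelial markers lay between 179 and 1909, mast cell markers between 61.2 and 972, B and plasma cell markers between 15.3 and 179 and T cell markers between 0.943 and 64.9 counts per kb. The melanocyte markers Mlana, Pmel, Dct, Tyrp1 and Tyr, which RPE cells express too, lay between 4287 and 74294. Of the red cell list 3 of 5 genes were found, between 781 and 64451. Lyz2 was above all of these except Ttr, the transthyretin gene, at 335233.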

How the data were processed

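RPE/choroid RNA of 3 Young and 3 Aged mice was measured by RNA-seq. Per the study's methods, the authors used BBDuk for trimming and STAR for mapping to GRCm38 transcripts of Ensembl. Sailfish gave TPM values, which the authors turned into normalized counts by total count, and DESeq2 made their comparison. Whether the deposited means derive from TPM, and so already account for transcript length, was not tested. The column used is the deposited mean normalized count, a signal averaged by the authors over all libraries. The deposited table also holds the log2 fold change between the ages, its standard error, a test statistic and raw and adjusted p-values of the authors' own comparison, and none of these was used. No test was made. Depth per sample is unknown, and with no replicate values no error could be computed. Whether quantification used strand is not given in the sources used here.

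The means of 33924 genes add up to 40816668. Lengths came from GENCODE M21 (GRCm38) by symbol, or by an older symbol with 1 current gene, and were found for 97.3% of the 18479 genes with a mean of at least 10. Dates stood in place of 25 gene symbols. A word was counted as shared where a transcript of another gene held it on either strand, and the count was tested on simulated sequences. Lysozyme regions of unequal length and the promoter stretches of Lyz1 and Lyz2 were aligned globally.

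Named are the 4 genes, the genes of each list with a mean of at least 100 (at most the 6 highest per kb), family genes listed at 0 and the macrophage markers nearest to each of the 4. All other genes in the text, among them chromosomal neighbours and markers of other cell types, were named after their values were seen. Spaca7, an acrosome gene, had been put on the lysozyme family list in error and was left out after its value was seen. Members and lists were chosen with earlier results of these data known. Python 3.11.15, pandas 2.3.3, numpy 2.4.6, Biopython 1.88 and matplotlib 3.10.9 were used. Some items on the lists are not reported here.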

Additional observations from a re-analysis of the deposited data

How the results depend on the processing

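No paired analysis was possible because the values used here are means over all libraries. For the same reason no replicate could be left out. Of 40 alternative values, 30 lay within 1.5 times the reported one and 10 did not. Division by coding length, chosen after seeing the data in place of RefSeq protein lengths, which was not run, gave 2174 counts per kb for Cd5l, 22259 for Lyz1, 272695 for Lyz2 and 5035 for Mpeg1. It is higher for every gene by construction, and it ranked Lyz1 at 258 and Lyz2 at 8. The order of the 4 genes was the same per coding kb. Among protein coding genes alone Lyz1 ranked at 284. By the count itself, not per length, Mpeg1 ranked at 551, above Lyz1 at 622. The 4 genes summed to 102.6 times the median of the macrophage markers without Ctss, the most abundant one. Against the sum of the markers without Ctss, chosen after seeing the data, the ratio was 2.31 in place of 1.27, so that 1 marker sets much of it. With words of 31 bases 65.8% of Lyz1 and 67.2% of Lyz2 were found in no other gene, and with words of 100 bases 97.9% and 98.0%. For Mpeg1 99.3% of words of 31 bases were found in no other gene, and its 31 shared words were all shared with the neighbouring gene Pfpl. Levels are means of both ages, so a gene high in 1 age group only cannot be recognised.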
